A study of Mus musculus with 18 samples.

Results

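The CXC chemokines described here are the 8 rows of the count table named Cxcl1, Cxcl2, Cxcl3, Cxcl9, Cxcl10, Cxcl11, Cxcl14 or Cxcl16, of 21734 protein-coding genes. They were taken by gene name, and 3 form the NF-kB group (Cxcl1, Cxcl2, Cxcl3), 3 the interferon group (Cxcl9, Cxcl10, Cxcl11) and 2 stand outside both. Cxcl14 is a chemokine made by many resting tissues, and Cxcl16 is a membrane-anchored ligand of Cxcr6 that also binds oxidized lipids. All 8 passed the filter on low counts that left 11357 genes for testing.

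CXC chemokines are small secreted proteins that draw leukocytes to sites of infection. Cxcl1, Cxcl2 and Cxcl3 call neutrophils through Cxcr2 and are textbook targets of NF-kB, the transcription factor that LPS activates through Toll-like receptor 4, and their messages carry AU-rich elements that mark them for rapid decay. Cxcl9, Cxcl10 and Cxcl11 call activated T and NK cells through Cxcr3 and are induced by interferons, which LPS-treated macrophages also make. miR-146a, itself induced by NF-kB, dampens this pathway by repressing the adaptors Irak1 and Traf6.

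RNA came from BMDMs, macrophages raised from mouse bone marrow for 8 to 9 days in 10 ng/ml M-CSF. The mice were 6 to 7 months old on a 129/B6 mix background. There were 3 mice of each genotype, wild-type (WT), miR-146a knock-out (KO) and the non-seed swap 3'F, whose miR-146a keeps its seed while its 3′ part differs, and separate cultures were left resting or given 1 ng/ml LPS for 16 h. That gives 6 groups of 3 libraries. Every cell of a KO or 3'F animal carries its allele, each allele stems from a single mouse line crossed to C57BL6/J, and WT controls were drawn from both lines. A count from a whole culture cannot tell fewer cells of a type from less RNA per cell. Library totals ran from 4071084 to 19818043 counts, with resting 3'F replicate 3 the shallowest. The first principal component of log2 CPM (counts scaled to the size of the library) held 61.8% of the variance and spread resting from LPS libraries, with 1 library out of place. Resting KO replicate 3 lay at 19.7, inside the range of the LPS libraries, 17.4 to 70.6, whereas resting KO replicates 1 and 2 lay at -28.2 and -31.4. Fold changes of members that rest on this library are therefore given with and without it. The shallowest library lay apart from all others on component 2 (10.2% of the variance), and without it the number of members called stayed the same in each comparison with 3'F. T and NK cell markers summed to at most 2.69 CPM, with Cd3e and Gzma at 0 counts throughout. The 9 macrophage markers summed to 31905 to 88027 CPM in every library, but KO lay above WT in both states. At rest their sum was 60662.5 to 62594 CPM in KO, 31905 to 47922 in WT and 42770 to 62394 in 3'F. With LPS it was 71317 to 88027 in KO, 45639 to 60055 in WT and 50586.5 to 60564 in 3'F. Csf1r and Fcgr1 were called higher and Itgam lower in resting KO against WT. The part of these markers in the values was not tested. miR-146a itself is not a protein-coding gene, so its level was not analysed here.

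The mature miRNA that sets the genotypes is shown first, with its seed (bases 2 to 8) in capitals, beside miR-146b-5p, a second miRNA with the same seed encoded on another chromosome. Sequences are from RefSeq on GRCm38.p6. miR-146a-5p lies at chr11:43374435-43374456 on the minus strand and miR-146b-5p at chr19:46342790-46342811 on the plus strand.
mmu-miR-146a-5p: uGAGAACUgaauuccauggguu
mmu-miR-146b-5p: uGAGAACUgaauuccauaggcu

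No member held a 7mer or 8mer match to that seed in its longest annotated 3′ UTR, a feature that 18.2% of 20788 protein-coding 3′ UTRs had. Cxcl14 held the only 6mer match, at positions 917 to 922 of its 1149-base 3′ UTR, and 29.7% of all 3′ UTRs held at least 1. The match is in capitals below.
Cxcl14 3′ UTR site: acagcactGTTCTCtgagttag

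Of the members, 6 lie on chromosome 5 in a pair of clusters (GENCODE M21, GRCm38). Cxcl3 (chr5:90786103-90789600), Cxcl1 (chr5:90891241-90893115) and Cxcl2 (chr5:90903871-90905938) share the plus strand over 120 kb. Cxcl9 (chr5:92321347-92328079), Cxcl10 (chr5:92346638-92348889) and Cxcl11 (chr5:92359544-92365485) share the minus strand over 44.1 kb. The annotation lists Cxcl11 as a polymorphic pseudogene, since some mouse strains carry an intact copy and others do not. Cxcl14 (chr13:56288643-56296551) and Cxcl16 (chr11:70453983-70459984) stand alone on the minus strand.

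The promoters were taken as 250 bases before to 50 after the RefSeq start. A run of bases shared by all promoters of the NF-kB group was looked for, so its presence in each was fixed beforehand. The longest run of bases shared by the NF-kB group before the start was the 11-base kappaB sequence GGGAATTTCCC, which 0.0426% of 32851 promoters held on either strand. Each copy sat 61 to 97 bases before the start and held a match to the NF-kB consensus on either strand. It is in capitals here, at chr5:90891166-90891192 for Cxcl1, chr5:90903794-90903820 for Cxcl2 and chr5:90786020-90786046 for Cxcl3, all on the plus strand.
Cxcl1 promoter: tgtactccGGGAATTTCCCtggcccgg
Cxcl2 promoter: tgagctcaGGGAATTTCCCtggtcccc
Cxcl3 promoter: gctgcgggGGGAATTTCCCcagcccgg

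Cxcl10 carried both kinds of element, 3 matches to the NF-kB consensus, 2 of which overlap, and 1 match to the interferon-stimulated response element (ISRE) core GAAANNGAAA. The consensus was present in 8.46% of promoters and the ISRE core in 3.44%. The ISRE match lies 204 to 213 bases before the start, and the window shown first spans chr5:92349085-92349110. The upstream kappaB match lies 150 to 159 bases before the start, in chr5:92349031-92349056.
Cxcl10 ISRE: acgctttgGAAAGTGAAActtacctc
Cxcl10 kappaB: aggggagaGGGAAATTCCaagttcat

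The Cxcl9 window held neither motif, nor the GAS core TTCNNNGAA, which 8.3% of promoters held. The Cxcl14 window held 1 ISRE core and 1 GAS core. Promoters were at hand for 6 of the 8 members, all but Cxcl11 and Cxcl16.

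The 3′ UTRs differed between the groups in the AU-rich pentamer ATTTA. Cxcl1, Cxcl2 and Cxcl3 held 11.8, 7.36 and 7.75 pentamers per kb, against 1.22, 3.01 and 0.821 per kb for Cxcl9, Cxcl10 and Cxcl11. The median over all 3′ UTRs was 1.24 per kb. The nonamer UUAUUUAUU, a stronger form of the element, occurred 2, 4 and 1 times in Cxcl1, Cxcl2 and Cxcl3 and in none of the other 5 members, and 7.67% of all 3′ UTRs held it.

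**Figure D1:**
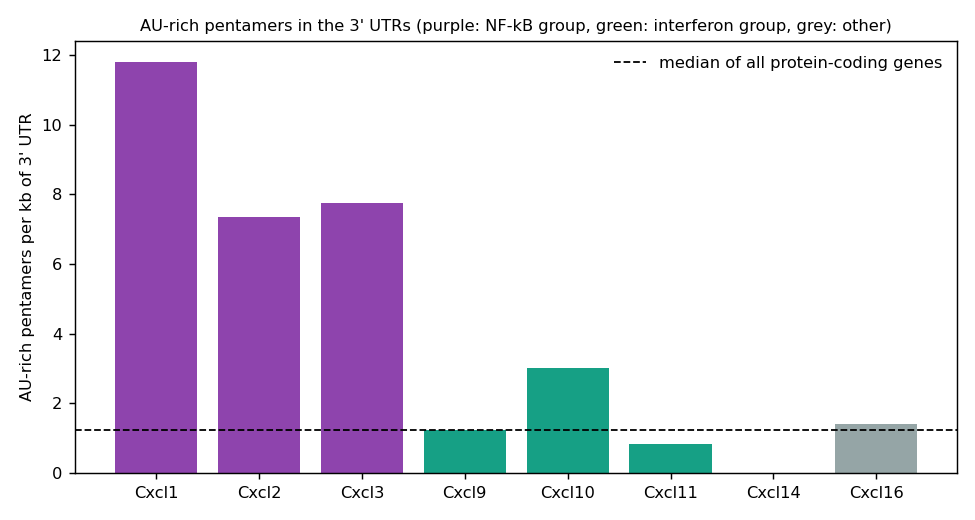
AU-rich pentamers per kb of the longest annotated 3′ UTR (vertical axis) for the 8 members, with the median of all protein-coding genes as a dashed line. Cxcl1, Cxcl2 and Cxcl3 stand at 7.36 to 11.8 per kb and the other 5 at 0.0 to 3.01.

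Levels between genes are compared per kb of exon. In resting WT cells the most abundant member was Cxcl16 at 55.8 ± 11.0 CPM per kb (SD, n = 3), followed by Cxcl2 at 22.4 ± 8.33, Cxcl14 at 8.48 ± 3.38 and Cxcl1 at 6.85 ± 3.95. Cxcl10 stood at 1.99 ± 1.53 CPM per kb, while Cxcl3, Cxcl9 and Cxcl11 were at 0.0780 or less. With LPS the WT order was Cxcl16 at 181 ± 24.4 and Cxcl10 at 160 ± 151, whose libraries overlapped, then Cxcl2 at 29.3 ± 4.97. In KO cells given LPS it was Cxcl10 that led, at 348 ± 93.7 CPM per kb against 200 ± 17.6 for Cxcl16, and the ranges of these libraries did not overlap. Of the summed interferon group, Cxcl10 made up 95.9% to 100% in every library, and Cxcl2 made up 67.1% to 88.1% of the NF-kB group.

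**Figure D2:**
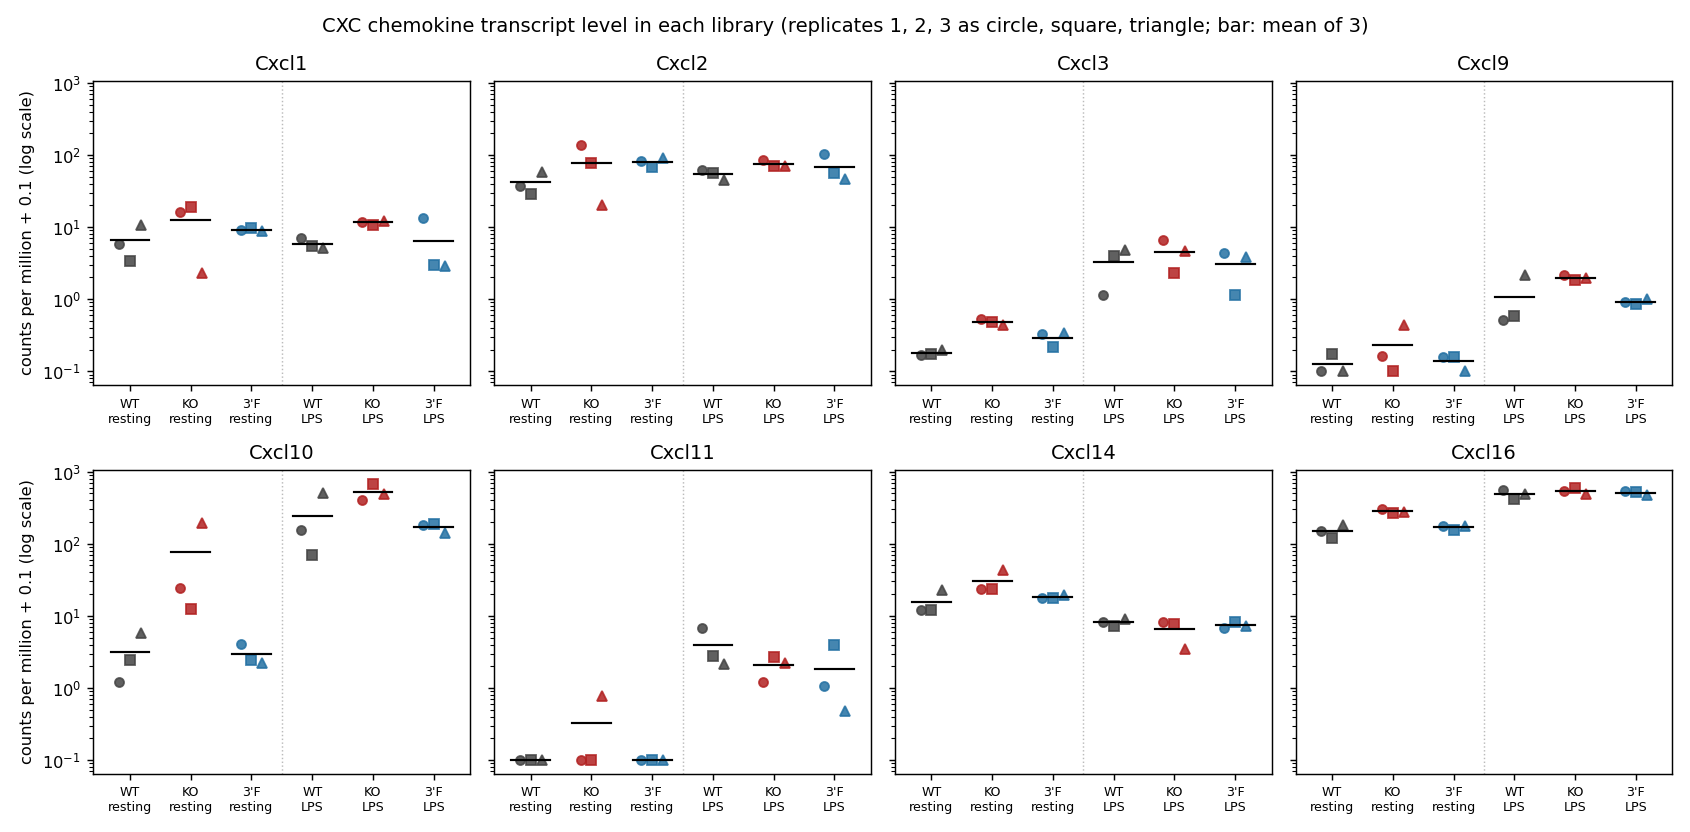
Level of each member (CPM plus 0.1, log scale) in the 18 libraries by group, with replicates 1, 2 and 3 as circles, squares and triangles and the mean of 3 as a bar. Cxcl3, Cxcl9, Cxcl10, Cxcl11 and Cxcl16 lie higher with LPS, Cxcl14 lower, and Cxcl1 and Cxcl2 overlap between states.

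Ordered by mean CPM over the 6 groups, Cxcl10 stood highest in KO with LPS, then in WT and 3'F with LPS and in resting KO, with each neighbour overlapping the next, and all libraries of these groups lay above resting WT and 3'F. Cxcl3 and Cxcl9 ran in the same order down to resting KO, and here the LPS groups lay clear of the resting ones. Cxcl16 had the 3 LPS groups overlapping at the top, resting KO clear below them and resting 3'F and WT, which overlapped, clear below that. Cxcl14 ran the other way, with resting KO clear above resting 3'F and WT and these clear above the LPS groups. Cxcl2 was highest in resting 3'F and lowest in resting WT, and every pair of neighbours in its order overlapped. For Cxcl1 the means ran from resting KO to WT with LPS, and among neighbours only KO with LPS and resting 3'F did not overlap. Cxcl11 was highest in WT with LPS, followed by KO and 3'F with LPS, which overlapped.

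The first question was how 16 h of LPS moved each member in each genotype. In every genotype 6 of the 8 members were called at an adjusted p under 0.05, 5 of them higher (Cxcl3, Cxcl9, Cxcl10, Cxcl11, Cxcl16) and 1 lower (Cxcl14). Among all genes tested, LPS called 28.5% in WT (16.3% higher, 12.3% lower), 26.9% in KO (14.3% and 12.6%) and 31.2% in 3'F (17.2% and 14%). The same 6 members did not overlap between resting and LPS libraries in any genotype, as held for 47.5% of all genes in WT, 42.7% in KO and 45.2% in 3'F. The interferon group passed whole, 3 of 3, whereas in the NF-kB group Cxcl3 alone passed. The median log2 fold change in WT was 6.39 for the interferon group and 0.39 for the NF-kB group, beside 0.02 for all genes. Of the 10 stromal and endothelial markers 5 were tested, and Pdgfrb (2.66 ± 0.53 in WT, 3.46 ± 0.48 in KO, 1.44 ± 0.49 in 3'F) and Dcn (2.26 ± 0.70, 2.57 ± 0.83 and 3.45 ± 0.77) were higher with LPS in all genotypes. The list summed to 6.90 to 12.6 CPM in resting and 10.2 to 30.1 CPM in LPS libraries of WT, to 7.95 to 35.5 and 27.2 to 30.5 in KO, and to 7.13 to 16.2 and 12.95 to 20.7 in 3'F. Its part in the LPS responses was not tested.

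In WT and 3'F, Cxcl10 had the highest log2 fold change of the members with counts in every library, whereas in KO its estimate lay below that of Cxcl3. Without resting KO replicate 3 the KO estimate of Cxcl10 lay above that of Cxcl3 (4.86 against 3.42). In WT Cxcl10 read 1.12, 2.33 and 5.61 CPM at rest and 155, 69.7 and 503 CPM with LPS, so the states did not overlap. The log2 fold change was 6.39 ± 1.04 (SE), an 83.9-fold rise with an adjusted p of 0.000281 in edgeR, and it was 5.28 without WT LPS replicate 3 and 7.15 without resting WT replicate 3. In 3'F, resting libraries read 3.95, 2.38 and 2.11 CPM and LPS libraries 182, 186 and 142 CPM, a log2 fold change of 5.84 ± 1.02 and an adjusted p of 0.000515. KO libraries started higher, at 23.98, 12.2 and 196 CPM, and reached 409, 686 and 492 CPM with LPS. The fold was 6.88 in KO, a log2 fold change of 2.78 ± 0.83 with an adjusted p of 0.0201, and it rests on the library that stood apart. Without resting KO replicate 3 the KO log2 fold change was 4.86 ± 0.72 with an adjusted p of 7.44e-05, whereas without resting KO replicate 1, resting KO replicate 2 or KO LPS replicate 2 it was 2.35, 2.27 and 2.53 and no longer passed (adjusted p = 0.0822, 0.0605 and 0.0610), nor did it with the 2 groups fitted alone (0.0945).

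Cxcl9 and Cxcl11 were at or near 0 counts at rest and stayed scarce with LPS. Cxcl9 had 0, 1 and 0 counts in resting WT libraries and 6, 7 and 28 with LPS. In KO it had 1, 0 and 3 counts at rest and 30, 24 and 26 with LPS, and in 3'F it went from 1, 1 and 0 to 11, 14 and 7. LPS libraries thus lay above the resting ones in all 3 genotypes. The ratio of pooled counts was 37.4 in WT (95% counting interval 6.34 to 1511) and 15.8 in 3'F (4.04 to 136), and the log2 fold change in KO was 4.02 ± 0.76, or 5.46 ± 0.94 without resting KO replicate 3. The WT estimate of 4.81 was 3.71 without WT LPS replicate 3 and 6.72 without resting WT replicate 2, and both passed. The adjusted p of Cxcl9 was 0.00207 in WT, 0.000883 in KO and 0.00666 in 3'F.

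Cxcl11 had 0 counts in all resting WT and 3'F libraries. With LPS it had 96, 39 and 28 counts in WT, at least 49.5-fold higher (floor of 3 counts over the group), and 13, 70 and 3 in 3'F, at least 28.3-fold higher, with 70 of the 3'F counts in replicate 2 (adjusted p = 0.0488 without it). Resting KO libraries had 0, 0 and 6 counts, the 6 in replicate 3, and KO libraries with LPS had 16, 36 and 30. The KO log2 fold change of 3.47 ± 1.15 had an adjusted p of 0.0420, close to the threshold. It no longer passed without resting KO replicate 1 (2.73, adjusted p = 0.153), resting KO replicate 2 (2.87, 0.137), KO LPS replicate 2 (3.16, 0.117) or KO LPS replicate 3 (3.40, 0.0824), nor with DESeq2 (0.0855) or with the 2 groups fitted alone (0.0552). Without resting KO replicate 3 both remaining resting KO libraries stood at 0 counts (adjusted p = 0.00997).

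Cxcl3, the NF-kB group member of lowest level at rest, was the one that rose. Resting WT libraries held 1 count each and WT libraries with LPS 15, 57 and 65, a ratio of pooled counts of 41.6 (13.9 to 204) and an adjusted p of 0.000281. KO libraries went from 7, 5 and 3 counts to 95, 30 and 65, a log2 fold change of 3.48 ± 0.65 with an adjusted p of 0.000782. In 3'F the counts went from 4, 2 and 1 to 59, 19 and 29, a log2 fold change of 3.97 ± 0.77 with an adjusted p of 0.00107. Every LPS library lay above every resting one of its genotype.

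Cxcl1 and Cxcl2 were present at rest and did not pass in any genotype. Cxcl2 read 37.2, 28.8 and 58.8 CPM in resting WT and 62.6, 56.4 and 44.4 CPM with LPS, which overlap. In 3'F it read 81.8, 68.9 and 91.8 CPM at rest and 104, 55.9 and 47.1 CPM with LPS, which overlap too. Its log2 fold change was 0.39 (95% interval -0.58 to 1.36) in WT, -0.06 (-1.01 to 0.90) in KO and -0.22 (-1.19 to 0.74) in 3'F, so the WT interval takes in rises of more than 2-fold as well as a decrease. The KO value of Cxcl2 was -0.51 ± 0.32 without resting KO replicate 3 (adjusted p = 0.241). Cxcl1 read 5.71, 3.24 and 10.6 CPM in resting WT and 7.05, 5.32 and 5.06 CPM with LPS. Its log2 fold change was -0.15 (-1.46 to 1.17) in WT, -0.14 (-1.37 to 1.09) in KO and -0.50 (-1.81 to 0.80) in 3'F. The KO value of Cxcl1 was -0.61 ± 0.47 without resting KO replicate 3 (adjusted p = 0.346). A single time point was sampled, and the level of these members before 16 h was not analysed here.

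Cxcl16 gave the tightest response. WT libraries read 151, 121 and 180 CPM at rest and 552, 421 and 491 CPM with LPS, a log2 fold change of 1.70 ± 0.14 with an adjusted p of 4.88e-07. In 3'F the values were 176, 153 and 177 CPM at rest and 540, 523 and 481 CPM with LPS, a log2 fold change of 1.61 ± 0.14. KO libraries read 305, 266 and 278 CPM at rest and 539, 589 and 494 CPM with LPS, a log2 fold change of 0.93 ± 0.14 with an adjusted p of 0.000124. With LPS the 3 genotypes overlapped at 421 to 589 CPM, whereas at rest every KO library lay above every WT and 3'F library.

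Cxcl14 was the only member that fell. In KO it read 23.7, 23.8 and 43.7 CPM at rest and 8.13, 7.68 and 3.35 CPM with LPS, a log2 fold change of -2.24 ± 0.32 with an adjusted p of 7.16e-05. Without resting KO replicate 3 the KO change of Cxcl14 was -1.89 ± 0.29 (adjusted p = 0.000103). In 3'F it read 17.8, 17.3 and 19.7 CPM at rest and 6.59, 8.00 and 7.18 CPM with LPS, a log2 fold change of -1.32 ± 0.32 with an adjusted p of 0.00514. WT libraries read 12.0, 11.9 and 22.6 CPM at rest and 8.16, 7.17 and 8.87 CPM with LPS, and the log2 fold change of -0.93 ± 0.31 had an adjusted p of 0.0341. That WT call was lost without WT LPS replicate 1 (-0.94, adjusted p = 0.0830), 2 (-0.85, 0.0988) or 3 (-1.003, 0.0666) and without resting WT replicate 3 (-0.56, 0.213), and also with a block on the replicate number (-0.88, 0.0797).

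**Figure D3:**
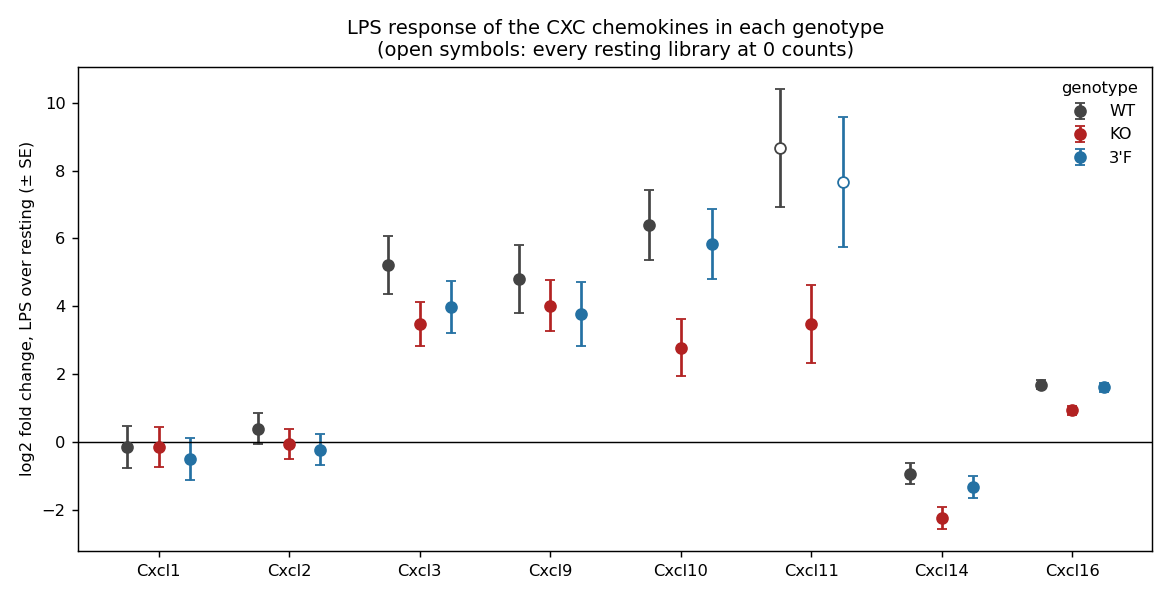
Log2 fold change of each member with LPS over resting in WT, KO and 3'F (vertical axis, bars are SE, 3 libraries a group). Cxcl1 and Cxcl2 lie around 0 in all genotypes, Cxcl14 lies below 0, and the KO values of Cxcl10 (2.78) and Cxcl16 (0.93) lie under those of WT (6.39 and 1.70). Without resting KO replicate 3, which is not drawn apart, these KO values were 4.86 and 0.92.

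Whether the response itself differed between genotypes was tested as an interaction. No member was called for KO minus WT or for 3'F minus WT, where 0.00881% and 0% of all genes were called by edgeR, and DESeq2 called no member either, while quality weights called Cxcl16 for KO (-0.85, adjusted p = 0.0471). At an unadjusted p under 0.05, 4.93% of all genes passed for KO and 1.79% for 3'F, with 3 members among the former (Cxcl10, Cxcl14 and Cxcl16) and none among the latter. The log2 response of Cxcl16 in KO less that in WT was -0.76 ± 0.20 (adjusted p = 0.507). That of Cxcl10 was -3.61 ± 1.22 (adjusted p = 0.691), and that of Cxcl14 was -1.31 ± 0.44 (adjusted p = 0.691). Without resting KO replicate 3 the values were -0.78 for Cxcl16, -1.55 for Cxcl10 and -0.96 for Cxcl14. For 3'F the interaction of Cxcl16 was -0.09 (95% interval -0.50 to 0.33) and that of Cxcl10 was -0.55 (-3.35 to 2.24).

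The second question was how resting KO cells differed from resting WT cells. Each allele stems from a single line, so its effect cannot be told apart from that of other DNA of the line. Of the 8 members 2 were called in KO against WT, both higher, where 9.4% of all genes were called and 5.12% were higher. In 4 members (Cxcl3, Cxcl10, Cxcl14 and Cxcl16) the KO and WT libraries did not overlap, as held for 26.8% of all genes. Cxcl16 was 1.88-fold higher, with KO libraries at 266 to 305 CPM and WT libraries at 121 to 180 CPM, a log2 fold change of 0.91 ± 0.14 and an adjusted p of 0.00162. It read 0.92 ± 0.15 without resting KO replicate 3 (adjusted p = 0.00303) and passed without each of the 6 libraries in turn. Cxcl16 and miR-146a both lie on chromosome 11, and the part of DNA near the altered locus was not tested. Cxcl10 was 26.6-fold higher, 4.73 ± 0.98 on the log2 scale, with an adjusted p of 0.00780.

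The size of the Cxcl10 difference hung on 1 library. Its KO values of 23.98, 12.2 and 196 CPM all lay above the highest resting WT value of 5.61 CPM. Without replicate 3 the log2 fold change was 2.67 ± 0.71, or 6.38-fold, with an adjusted p of 0.0337, and without resting WT replicate 3 it was 5.49 and passed. With all libraries the call was lost when the 2 groups were fitted alone (adjusted p = 0.0847) or with quality weights (2.61, adjusted p = 0.0648). Resting KO replicate 3 also carried the lowest Cxcl1 and Cxcl2 of its group, the highest Cxcl14, and all of the group's Cxcl11 counts. In it the markers of neutrophils and their precursors, 12 genes, summed to 120 CPM, against 64.8 and 86.6 CPM in the other resting KO libraries and 40.7 to 55.0 CPM in resting WT, and up to 96.7 CPM in resting 3'F. The 10 stromal and endothelial markers summed to 35.5 CPM in it, against 12.98 and 7.95 CPM in the other resting KO libraries and 6.90 to 12.6 CPM in resting WT. The part of these markers in the values was not tested.

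**Figure D4:**
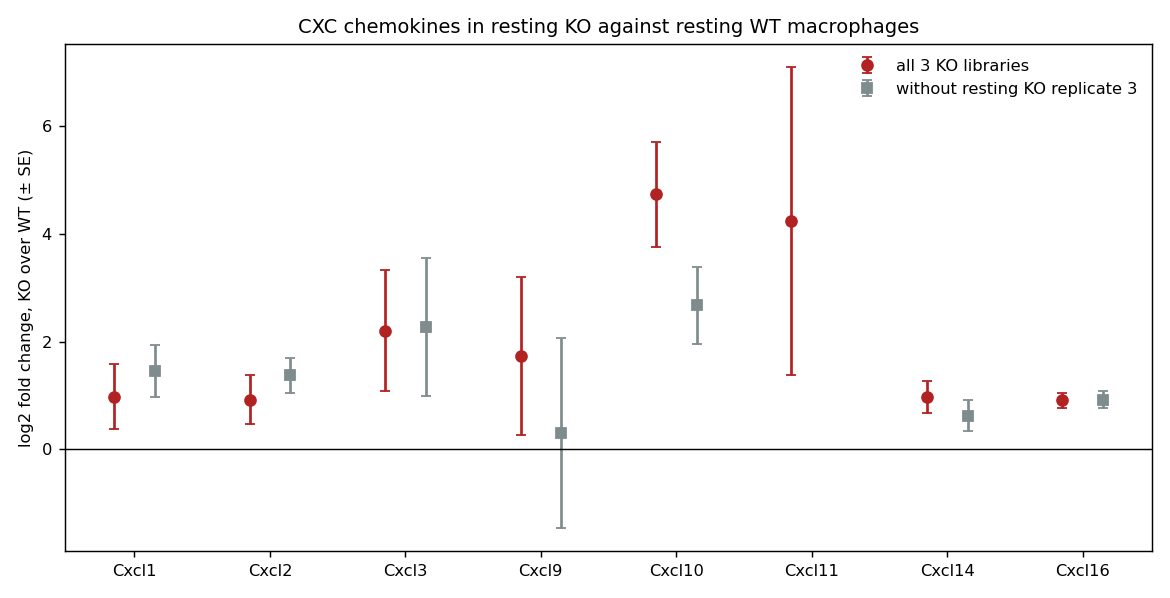
Log2 fold change of the members in resting KO over resting WT (vertical axis, bars are SE) with all 3 KO libraries (circles) and without resting KO replicate 3 (squares). Cxcl10 moves from 4.73 to 2.67 and Cxcl2 from 0.92 to 1.37, Cxcl16 stays at 0.91 and 0.92, and Cxcl11 has no square because its other resting libraries held 0 counts.

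The NF-kB group did not pass in resting KO cells with all libraries in the edgeR fit. With quality weights Cxcl1 (1.43, adjusted p = 0.0453) and Cxcl2 (1.25, adjusted p = 0.0201) did. Cxcl2 read 138, 77.0 and 19.98 CPM in KO against 28.8 to 58.8 CPM in WT, a log2 fold change of 0.92 ± 0.46 with an adjusted p of 0.239. Without resting KO replicate 3 it was 1.37 ± 0.32 with an adjusted p of 0.0170. Cxcl1 read 16.1, 19.0 and 2.25 CPM in KO against 3.24 to 10.6 CPM in WT, at 0.98 ± 0.60 (adjusted p = 0.360), and at 1.45 ± 0.49 (adjusted p = 0.0868) without that library. Cxcl3 had 15 counts in KO and 3 in WT, a ratio of 5.09 (95% counting interval 1.44 to 27.4) with an adjusted p of 0.252. With all libraries the estimates of all 8 members were above 0, with a median of 1.36 beside 0.02 for all genes. The share of all genes above 0 was not counted. Without resting KO replicate 3 the estimate of Cxcl9 was 0.31 in place of 1.74, and that of Cxcl11 was 0 in place of 4.24.

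Cxcl14 lay at the edge of the threshold. Its KO libraries read 23.7 to 43.7 CPM and its WT libraries 11.9 to 22.6 CPM, without overlap, and the log2 fold change of 0.97 ± 0.30 had an adjusted p of 0.0521. It passed without resting WT replicate 3 (1.34, adjusted p = 0.0203), resting KO replicate 1 (1.13, 0.0432) or resting KO replicate 2 (1.12, 0.0420), and was 0.63 (0.210) without resting KO replicate 3. Cxcl9 and Cxcl11 had 4 and 6 counts over the resting KO group and 1 and 0 over WT, too few to show a difference at this depth.

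With LPS, no member was called between KO and WT, where 4.79% of all genes were called. No member had an unadjusted p under 0.05, as 18% of all genes did, and DESeq2 called none of the 8. With the 2 groups fitted alone Cxcl1 was called (adjusted p = 0.0151), and with quality weights Cxcl9 (0.0112) and Cxcl10 (0.0259) were. The libraries did not overlap for 2 members, Cxcl1 and Cxcl2, as held for 33% of all genes. Cxcl10 read 409 to 686 CPM in KO and 69.7 to 503 CPM in WT, a log2 fold change of 1.12 (95% interval -0.54 to 2.79). WT LPS replicate 3 had the highest WT value of both Cxcl9 and Cxcl10, and without it the log2 fold changes were 2.05 (adjusted p = 0.0477) for Cxcl9, in place of 0.95 (0.383), and 2.23 for Cxcl10. Cxcl1 read 11.8, 10.6 and 12.1 CPM in KO and 5.06 to 7.05 CPM in WT, at 0.99 ± 0.60 (adjusted p = 0.438). Cxcl2 read 70.5 to 84.9 CPM in KO and 44.4 to 62.6 CPM in WT, at 0.47 ± 0.45. Cxcl16 differed by 0.15 (-0.15 to 0.44).

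The third question was whether the 3'F allele left these genes where WT has them. No member was called between 3'F and WT, resting or with LPS, where 0% and 0.00881% of all genes were called. Unadjusted p values under 0.05 were found for 4.9% of all genes at rest and 0.933% with LPS and for no member, and DESeq2 called no member. Libraries did not overlap for Cxcl2 and Cxcl3 at rest, as held for 7.12% of all genes, and for no member with LPS, where 7.87% of all genes did not. Cxcl3 had 7 counts in resting 3'F and 3 in resting WT, a ratio of pooled counts of 2.31 (95% counting interval 0.53 to 13.8). Resting 3'F replicate 3, the shallowest library, held 1 Cxcl3 count, as did each resting WT library, so its higher CPM hangs on depth. Replicates 1 and 2 held 4 and 2 counts, 0.226 and 0.116 CPM, against at most 0.0967 CPM in resting WT. Resting Cxcl2 read 68.9 to 91.8 CPM in 3'F and 28.8 to 58.8 CPM in WT. The log2 fold change was 0.96 (95% interval -0.02 to 1.93, adjusted p = 0.843). Cxcl10 differed by 0.04 (-2.20 to 2.29) at rest and by -0.51 (-2.16 to 1.14) with LPS, and Cxcl16 by 0.16 (-0.13 to 0.46) and 0.08 (-0.22 to 0.37). At rest the Cxcl16 interval stops short of the 0.91 measured for resting KO against WT, and with LPS it holds the 0.15 measured for KO. The Cxcl10 intervals are too wide to bound a difference of several fold.

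Set directly against 3'F, which shares the KO libraries with the WT comparison, resting KO cells had 2 members called, again Cxcl10 and Cxcl16, where 12.9% of all genes were called and 6.79% were higher. The libraries of the same 4 members as against WT did not overlap, as held for 29.7% of all genes. Of these, Cxcl3 rested on 15 counts in resting KO and 7 in resting 3'F. Cxcl10 was 25.8-fold higher, 4.69 ± 0.99 on the log2 scale with an adjusted p of 0.00906, and 6.06-fold (adjusted p = 0.0383) without resting KO replicate 3. Cxcl16 was 1.68-fold higher, 0.75 ± 0.14 with an adjusted p of 0.00598. Neither passed when these groups were fitted alone (adjusted p = 0.140 and 0.0961). Cxcl2 stood at -0.04 (95% interval -0.996 to 0.93), and at 0.42 ± 0.32 (adjusted p = 0.401) without resting KO replicate 3. With LPS no member was called, where 3.88% of all genes were called by edgeR, and DESeq2 called none of the 8. Cxcl9 and Cxcl10 were called with these groups fitted alone (adjusted p = 0.0261 and 0.000476) and with quality weights (0.0242 and 0.0163). At an unadjusted p under 0.05, which 16.9% of all genes reached, Cxcl9 passed alone, at 1.204 ± 0.55 (adjusted p = 0.279). Cxcl9 and Cxcl10 did not overlap, as held for 34.3% of all genes. Cxcl10 read 409 to 686 CPM in KO against 142 to 186 CPM in 3'F, at 1.64 ± 0.80 (adjusted p = 0.317).

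The contrast of the groups was also read within each library, as the mean log2 CPM of Cxcl1, Cxcl2 and Cxcl3 less that of Cxcl9, Cxcl10 and Cxcl11. At rest the NF-kB group lay above by 2.68 to 3.57 in WT and 3.70 to 4.20 in 3'F, and by 3.58 and 3.83 in KO replicates 1 and 2, but KO replicate 3 read -0.58. With LPS the difference was -0.37 to 1.11 in WT, -0.33 to 0.86 in KO and -0.58 to 1.67 in 3'F. As a share of the summed level per kb, the interferon group made up 2.31% to 14.7% of both groups in the resting libraries other than KO replicate 3, where it was 90.6%. With LPS it made up 54.5% to 90.8%. The sum of the NF-kB group, 13.4 to 91.3 CPM per kb at rest and 31.9 to 73.9 with LPS, overlapped between the states. That of the interferon group was 0.735 to 15.8 CPM per kb in the resting libraries other than KO replicate 3 and 47.7 to 454 with LPS, without overlap.

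**Figure D5:**
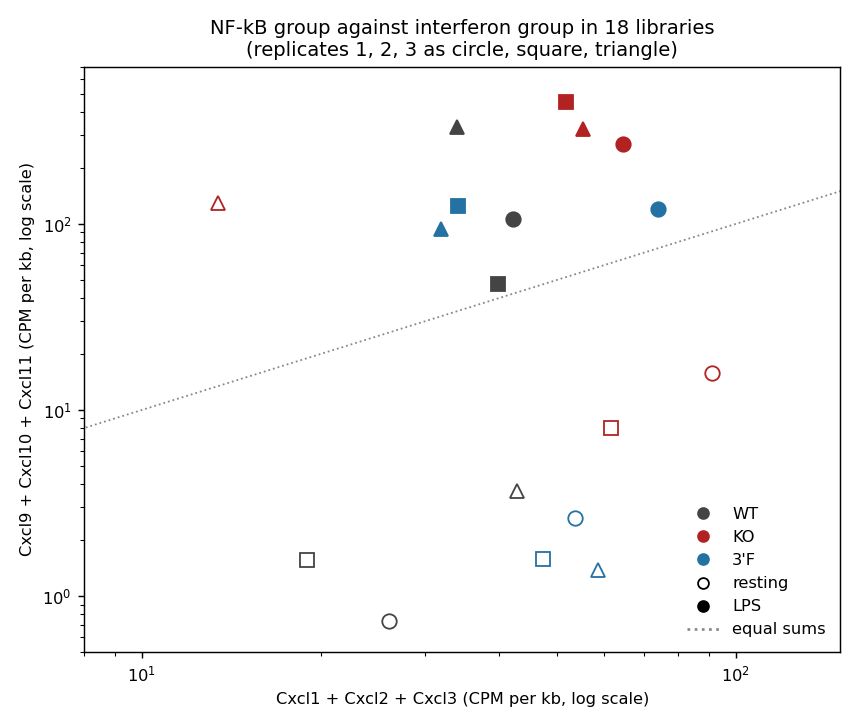
Summed level of Cxcl9, Cxcl10 and Cxcl11 (vertical axis) against that of Cxcl1, Cxcl2 and Cxcl3 (horizontal axis) in CPM per kb, log scales, for the 18 libraries, resting as open and LPS as filled symbols. All LPS libraries lie above the dotted line of equal sums, and of the resting libraries KO replicate 3 alone does, at 130 against 13.4.

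Across the 18 libraries, log2 CPM of Cxcl1 and Cxcl2 had a Pearson r of 0.82, and 0.91 once group means were taken out, the highest such value of any pair. Cxcl3 had an r of 0.04 with Cxcl1 and 0.21 with Cxcl2, against 0.91 with Cxcl9, 0.86 with Cxcl10, 0.75 with Cxcl11 and 0.90 with Cxcl16. Within groups its r was 0.19 with Cxcl1, 0.13 with Cxcl2, 0.32 with Cxcl9, -0.02 with Cxcl10, -0.72 with Cxcl11 and -0.25 with Cxcl16. Cxcl9 and Cxcl10 had an r of 0.93, and 0.77 within groups. Cxcl16 had an r of 0.94 with Cxcl10 over all libraries and 0.31 within groups. These values describe 18 libraries that share the LPS contrast and their depths, and no p is given. They include resting KO replicate 3 and were not computed without it.

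The genes whose log2 CPM came closest to each member over the 18 libraries differed accordingly. For Cxcl2 they were Zcchc7 (r = 0.88), Maff (0.84) and Kdm6b (0.82), and for Cxcl1 Csnk2a2 (0.81), Eif5 (0.81) and Heca (0.79). For Cxcl10 they were Parp14 (1.00), Cd69 (0.99) and Gbp5 (0.99), of which Gbp5 is a guanylate-binding protein induced by interferon. For Cxcl16 they were Mmp14, Clmp and Icam1, each at 0.98, and for Cxcl3 Ccser1 (0.95), Il1f9 (0.94) and the IL-12 subunit Il12b (0.94). Cxcl9 was followed by Ppip5k2 (0.98), Inpp5b and Tcea1 (both 0.97), Cxcl11 by Fbxo22 (0.94), Naip2 and Txn1 (both 0.93), and Cxcl14 by Gprc5c (0.90), Smad7 and Slc37a2 (both 0.88).

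Of the CXC receptors, Cxcr3 and Cxcr4 were tested and both fell with LPS in all genotypes. Cxcr4, the receptor of Cxcl12, read 239 ± 12.9 CPM at rest and 32.3 ± 8.48 CPM with LPS in WT, a log2 fold change of -2.89 ± 0.27 (adjusted p = 1.43e-06), and with LPS it was lower in KO than in WT (-0.97 ± 0.26, adjusted p = 0.0455). Cxcr3, the receptor of the interferon group, read 7.02 ± 1.21 and 2.19 ± 0.570 CPM in WT, at -1.68 ± 0.26 (adjusted p = 0.000178), and was lower in resting KO than in WT, at 3.69 ± 0.930 CPM and -0.95 ± 0.25 (adjusted p = 0.0251). Cxcr1, Cxcr2, Cxcr6 and Ackr3 had at most 8 counts in any library. Of the 7 other CXC ligands, Pf4 (424 ± 78.1 CPM in resting WT) and Ppbp (1.18 ± 0.904) were tested and neither passed in any of the 11 comparisons, while Cxcl13 and Cxcl15 had at most 13 and 4 counts in a library.

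Lists of NF-kB-dependent and interferon-stimulated genes, chosen with earlier results of these data known, were counted beside the members. Of 27 NF-kB-dependent genes LPS called 21 higher and 1 lower in WT, 19 and 2 in KO, 20 and 1 in 3'F. Il1a (5.84 ± 0.57 in WT) and Il1b (4.33 ± 0.77) were among the largest rises. The median log2 fold change of the 27 in WT was 1.28, above the 0.39 of the NF-kB chemokines. Of 30 interferon-stimulated genes 29 were higher in WT and 28 in 3'F, with Mx1 at 7.15 ± 1.40 in WT. In KO 5 were, and 28 without resting KO replicate 3, where LPS called 4040 of all genes against 3059 with it. The shares of all genes called with LPS are given above. In resting KO against WT 28 of these 30 genes were higher, with a median of 4.10, where 5.12% of all genes were. Without resting KO replicate 3 it was 19, with a median of 1.78. Of 27 NF-kB-dependent genes 14 were higher with that library and 14 without it. With any 1 library left out, 392 to 1047 of all genes were called at rest.

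Ifnb1, the interferon that LPS-treated macrophages make first, stood at low counts. It had 0 counts in all 3 resting WT libraries and 10, 5 and 11 with LPS, and 0, 2 and 6 counts in resting KO replicates 1, 2 and 3, the highest again in replicate 3. Its KO libraries with LPS held 24, 30 and 13 counts. In 3'F it had 1, 0 and 2 counts at rest and 10, 1 and 3 with LPS, and these states overlapped. Resting counts above 0 were thus not confined to KO. The log2 fold change with LPS in KO was 2.78 ± 0.90 (adjusted p = 0.0340). The rise was also called in WT (adjusted p = 0.0212) but not in 3'F.

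Of 9 regulators of chemokine messages 4 were higher and 2 lower with LPS in WT, 4 and 4 in KO, and 5 and 0 in 3'F, beside the shares of all genes given above for LPS. Zc3h12a, whose product Regnase-1 cuts inflammatory mRNAs, rose by 0.83 ± 0.21 in WT (adjusted p = 0.00668), and the adaptors Traf2 and Traf5, which act in mRNA stabilisation by IL-17 signalling, rose by 1.42 ± 0.12 and 1.42 ± 0.18. Of the 9, Traf2 alone was higher in resting KO than in WT (0.48 ± 0.12, adjusted p = 0.0228). Ifng, the gene of interferon gamma, the usual inducer of Cxcl9, had at most 1 count in any library and was not tested. Of 13 tested genes associated with interferon gamma, 8 were higher with LPS in WT, 3 in KO and 8 in 3'F, among them Nos2 at 6.29 ± 1.44 in WT, and in KO 8 were without resting KO replicate 3. With LPS 3 of them, Gbp2b, Cd74 and H2-Ab1, were higher in KO than in WT, where Cxcl9 was not called. At rest 6 of the 13 were higher in KO than in WT, and 4 without resting KO replicate 3. Gbp2b was higher in KO in both states, by 9.11 ± 2.37 at rest and 9.93 ± 2.26 with LPS. With LPS 0 of the 30 interferon-stimulated genes were called between KO and WT. The part of the mixed strain background in the Gbp2b values was not tested. Of 5 tested interferons and receptors, 4 were higher with LPS in WT, 4 in KO and 3 in 3'F.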

How the data were processed

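Counts were deposited by the authors as raw whole-number read counts per protein-coding gene, with an exon length for each. Per the labels and the study's methods, total RNA was depleted of rRNA and made into directional libraries, and reads were trimmed with cutadapt 1.8.3, aligned to mm10 with HISAT2 2.1.0 and counted by strand against Gencode with featureCounts 1.5.3. From these counts, genes were kept by filterByExpr over the 6 groups, scaled by TMM and tested in R 4.3.3 with edgeR 4.0.16, by 1 quasi-likelihood fit of all 18 libraries with a coefficient per group. Benjamini-Hochberg adjustment ran over 11357 genes in each of 11 comparisons, two-sided. SE is the log2 fold change divided by the square root of F. Intervals of a log2 fold change are at 95% from the t distribution at the fit's degrees of freedom. CPM are scaled by TMM. Log2 CPM used a prior count of 2. Library totals ran from 4071084 to 19818043. Counting intervals are exact at 95% and cover counting error only.

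Members and lists were chosen with earlier results of these data known. The rule named all 8 members, the 3 most alike genes of each by Pearson r, up to 3 called examples of a list, and other CXC ligands and receptors over 3 counts in a library. The labels give 3 mice of each genotype but do not tie replicates to mice, so p-values measure the spread between these libraries. Each replicate pair differed beyond sampling noise (chi-square per degree of freedom 6.95 to 109), and an exact permutation of 3 against 3 cannot go below p = 0.1. Gene positions and 3′ UTRs are from GENCODE M21, which held 21679 of the 21734 gene IDs, and promoters and miRNAs from RefSeq. The procedure was tested on simulated data. Alternatives were median-of-ratios scaling, DESeq2 1.42.0, no filter, the compared groups alone, quality weights in limma 3.58.1, a replicate block, a prior count of 0.5 and each library left out.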

Additional observations from a re-analysis of the deposited data

How the results depend on the processing

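No member changed direction in a called comparison under any alternative. Median-of-ratios scaling moved no call of a member. With DESeq2 the genes called were 983 for KO against WT with LPS, 801 for KO against 3'F with LPS, 23 for the KO minus WT response, and 2 in each 3'F against WT comparison; Cxcl11 lost its LPS call in KO (adjusted p = 0.0855) and Cxcl14 passed in resting KO against WT (0.0206). Without the filter on low counts 1 gene was called for resting 3'F against WT and 2 for the KO minus WT response, and Cxcl14 passed in resting KO against WT (0.0291). With the compared groups fitted alone the genes called were 396 for resting KO against WT (1 member), 1031 for KO against WT with LPS (1 member, Cxcl1), 16 for resting KO against 3'F (0 members), 1661 for KO against 3'F with LPS (2 members, Cxcl9 and Cxcl10), and 0 for 3'F against WT with LPS and for the KO minus WT response; in that fit the KO LPS calls of Cxcl10 (0.0945) and Cxcl11 (0.0552) were lost. With quality weights the genes called were 5218, 6073 and 5478 for LPS in WT, KO and 3'F, 2259 and 1777 for KO against WT resting and with LPS, 2916 and 1842 for KO against 3'F, 2 for resting 3'F against WT and 57 for the KO minus WT response. Of the members, Cxcl9 and Cxcl10 then passed in both KO comparisons with LPS (2 members each), Cxcl1 and Cxcl2 in resting KO against WT, and Cxcl16 in the KO minus WT response (1 member, -0.85, adjusted p = 0.0471). Cxcl10 lost its call in resting KO against WT (2.61, adjusted p = 0.0648). The cause was not tested. With a prior count of 0.5 the NF-kB less interferon difference was 4.13 in resting WT and 4.83 in resting 3'F.

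Resting and LPS libraries share replicate numbers. Same-numbered libraries deviated together, with correlations of 0.028 to 0.318, all above 0 and over 0.1 in 5 of 9 pairs. In 6 of 9 pairs both libraries correlated best with their own number. These values do not settle whether the numbers mark pairs. The labels give 3 mice for the 6 libraries of a genotype but do not say that a number marks a mouse. With a replicate block 0 genes were called for the KO minus WT response, and Cxcl14 lost its WT LPS call (-0.88, adjusted p = 0.0797).

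With each library left out in turn, the members called ranged from 5 to 6 for LPS in WT, 4 to 6 in KO, 6 to 6 in 3'F, 2 to 3 for resting KO against WT, 2 to 2 for resting KO against 3'F and 0 to 1 for KO against WT with LPS. The genes called ranged from 2213 to 2932 for LPS in WT, 2154 to 4040 in KO, 2490 to 3594 in 3'F, 392 to 1047 and 180 to 416 for KO against WT resting and with LPS, 735 to 1811 and 142 to 311 for KO against 3'F, 0 to 1 for each 3'F against WT comparison and 0 to 4 for the KO minus WT response. The NF-kB less interferon difference ranged from 3.05 to 3.49 in resting WT, 1.4996 to 3.70 in resting KO, 3.71 to 3.96 in resting 3'F, -0.21 to 0.53 in WT with LPS, -0.02 to 0.58 in KO with LPS and 0.17 to 1.30 in 3'F with LPS. Cxcl3, Cxcl9 and Cxcl11 had 0 to 7 counts in each resting library, which limits their fold changes.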
